A study of Rattus norvegicus with 6 samples.

Results

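The epidermal growth factor (EGF) receptor family and its ligands were followed in LN4D6, a line of rat mammary tumour cells, by every array probe set annotated to exactly 1 of 10 genes. These were the receptor genes Egfr, Erbb2 and Erbb3 and the ligand genes Areg, Ereg, Hbegf, Tgfa, Btc, Nrg1 and Epgn. The rule found 19 probe sets for 9 of the genes, out of 31042 probe sets tested, and 0 for Epgn. Nrg1 was read by 8 probe sets, Egfr by 3, Tgfa by 2 and each other gene by 1. RNA of 3 untransfected samples and 3 samples transfected with CREB3L1, a transcription factor released by proteolysis from the membrane of the endoplasmic reticulum, was hybridised to Affymetrix 3' expression arrays. All 6 samples carry the same cell line label, and the controls are labelled as transfected with nothing. Whether the CREB3L1 cells were 1 clone or a pool, and the time since transfection, is not stated in the labels. The labels do not say whether the replicates are separate cultures, and p-values may therefore reflect technical spread alone.

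Receptors of this family span the cell membrane and signal as pairs after a ligand binds outside the cell. EGFR binds amphiregulin, epiregulin, TGF-alpha, HB-EGF, betacellulin and epigen, while neuregulins bind ERBB3 and ERBB4. ERBB2 has no known ligand of its own and serves as the partner of the others. The ligands are made as membrane precursors that metalloproteases cut free, and in the mammary gland the family steers duct growth and the development of milk-producing cells, and it is much studied in breast tumours.

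Values are deposited log2 expression values, and differences are CREB3L1 minus untransfected with the standard error from limma, adjusted by Benjamini-Hochberg over all 31042 probe sets. A difference was called at an adjusted p below 0.05. Because there are no detection calls, values under a log2 level of 5 were treated as background. Each array value is an average over many cells, so more cells with a transcript and more transcript per cell cannot be told apart. CREB3L1 replicate 3 stood apart from the other arrays. Its Gapdh signal was 4.77 higher on the 3' than on the 5' control probe set, against -0.16 to -0.10 on the other 5 arrays, and its correlation with the others across probe sets was 0.984 to 0.989, against 0.996 to 0.999 among the others. Results are therefore given with and without it. Of the cell type markers, Krt5, Krt14 and Krt8 lay at 14.67 ± 0.11, 15.25 ± 0.13 and 13.24 ± 0.07 (SD, n = 3) in untransfected cells, while the epithelial genes Epcam, Cdh1 and Krt18 lay below background in both groups. Of 14 luminal epithelial markers measured 2 were above background in a group, of 8 basal and myoepithelial markers 3 (Krt5, Krt14 and Acta2), and of 11 mesenchymal markers 4 (Vim, Col3a1, Twist1 and Zeb1). Among those below it were the basal genes Krt17 and Myh11 and the mesenchymal genes Col1a1, Col1a2 and Pdgfrb. All 6 endothelial markers measured were below background, and of 7 leukocyte markers Cd14 and Csf1r were above it while Ptprc, which defines leukocytes, was below it. None of the 46 markers measured in the 5 lists passed limma's test, with 1 at an unadjusted p below 0.05. The Creb3l1 probe set read 3.36 in untransfected and 3.39 in CREB3L1 cells, below background in both. The labels do not state the species of the construct, and this value is no check of the transfection.

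Nrg1 was the member gene that rose in CREB3L1 cells, on 2 of its 8 probe sets, by 2.01-fold and 1.52-fold. No probe set of the other genes passed the test in either direction, and 0 of the 19 were called lower, against 0.963% of all probe sets. The ligands Areg, Ereg and Tgfa and the receptor Egfr were above background, and Erbb2, Erbb3, Hbegf and Btc were below it in both groups. The 2 calls among 19 member probe sets came to 10.5%, against 1.39% of all probe sets called in either direction, and both belong to 1 gene. At least 1 group lay above background for 10 of the 19 member probe sets. The groups did not overlap for 6 of the 19, with CREB3L1 all higher for 5 (26.3%, against 6.52% of all probe sets) and all lower for 1 (5.26%, against 7.75%). The median difference of the 19 was 0.01, and that of all probe sets was -0.01. At an unadjusted p below 0.05, 4 member probe sets were higher (21.1%, against 4.17% of all probe sets) and 1 was lower (5.26%, against 5.49%). These shares count Nrg1 by all 8 of its probe sets. By brightest probe set, 1 of the 9 member genes was called higher, against 0.577% of all genes. All CREB3L1 arrays were higher for 3 of the 9 and lower for 1, against 1279 and 1528 of all 14217 genes. At the unadjusted threshold 2 were higher and 1 lower, against 6.05% and 7.99% of all genes.

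**Figure D1:**
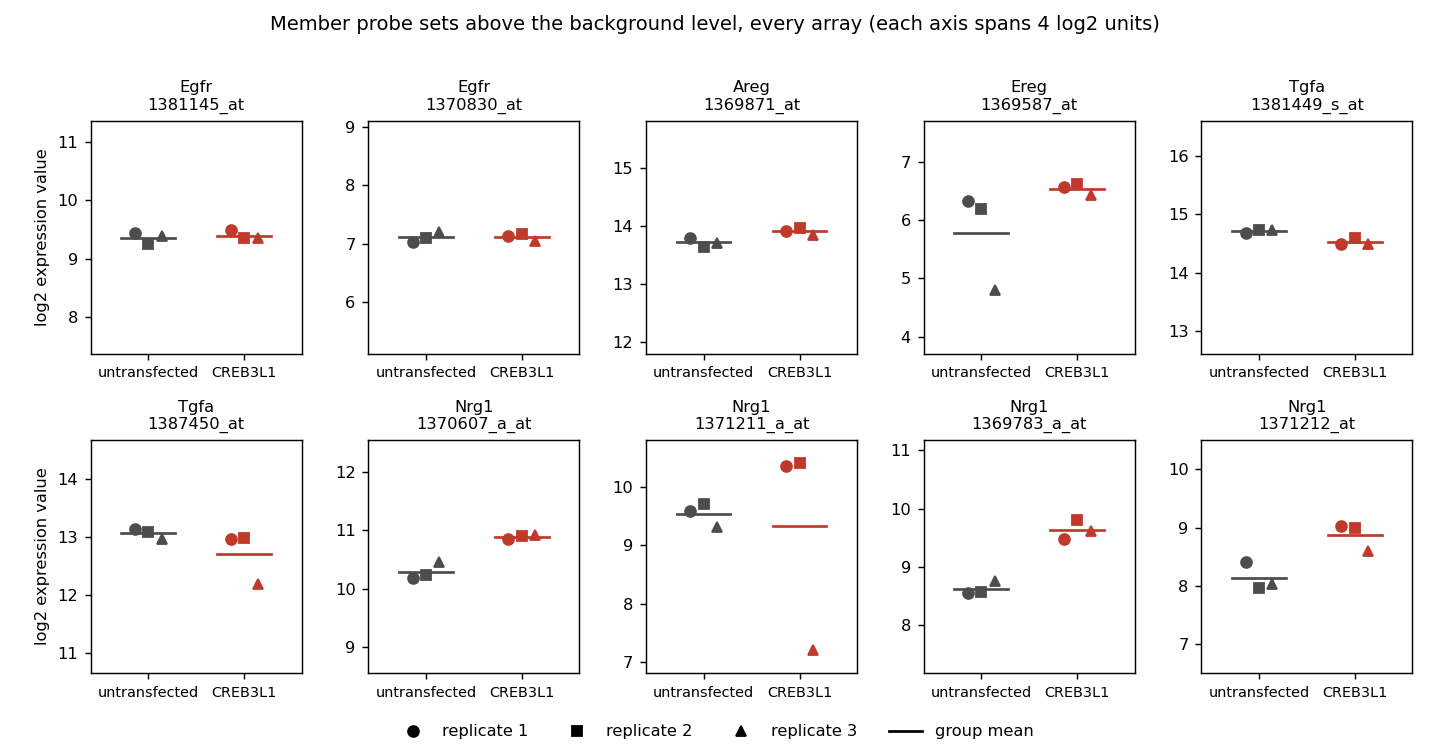
Log2 expression value (vertical axis, 4 log2 units in every panel) of the 10 member probe sets above the background level, by group, with a marker for each replicate and a line at each group mean. The CREB3L1 arrays lie above all untransfected arrays for Areg, Ereg and 3 Nrg1 probe sets and below them for Tgfa 1381449_s_at, and CREB3L1 replicate 3 lies far below its group on Nrg1 1371211_a_at.

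Nrg1 encodes neuregulin 1, a ligand made in many isoforms from several promoters by alternative splicing. Its 8 probe sets come from 5 sequence records in the array annotation, and 4 of them were above background. Probe sets with the suffix _a_at match several transcripts of 1 gene, so the rise cannot be assigned to a named isoform here.

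Probe set 1369783_a_at read 8.55, 8.57 and 8.76 in untransfected replicates 1, 2 and 3 and 9.48, 9.80 and 9.62 in the CREB3L1 replicates. All 3 CREB3L1 arrays lay above all untransfected arrays, with a gap between the groups larger than the spread within either. The difference was 1.005 ± 0.10 (adjusted p = 0.0191, limma), with a 95% interval of 0.74 to 1.27, which is 2.01-fold (1.67 to 2.41). It was 1.01 ± 0.12 without CREB3L1 replicate 3 (adjusted p = 0.0182, limma).

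Probe set 1370607_a_at read 10.18, 10.24 and 10.46 in untransfected cells and 10.85, 10.91 and 10.92 in CREB3L1 cells. The groups again did not overlap, and the CREB3L1 arrays lay within 0.1 of one another. The difference was 0.60 ± 0.08 (adjusted p = 0.0407, limma), or 1.52-fold with a 95% interval of 1.32 to 1.75. Without CREB3L1 replicate 3 it was 0.59 ± 0.09 (adjusted p = 0.0384, limma).

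Probe set 1371212_at read 8.41, 7.97 and 8.04 in untransfected cells and 9.04, 8.99 and 8.60 in CREB3L1 cells. Here too the groups were apart, with CREB3L1 replicate 3 the lowest of its group. The difference of 0.74 ± 0.17 did not pass the test (adjusted p = 0.169, limma), with a 95% interval of 0.31 to 1.16. Without CREB3L1 replicate 3 it was 0.87 ± 0.14 and passed (adjusted p = 0.0393, limma).

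Probe set 1371211_a_at read 9.59, 9.70 and 9.32 in untransfected cells and 10.36, 10.41 and 7.21 in CREB3L1 cells. CREB3L1 replicates 1 and 2 were the highest arrays and replicate 3 the lowest of all 6. Over all arrays the difference was -0.21 ± 0.92 (adjusted p = 0.9998, limma), with a 95% interval of -2.53 to 2.11. Without CREB3L1 replicate 3 it was 0.85 ± 0.12 (adjusted p = 0.0288, limma), so the direction turned with that 1 array. Replicate 3 minus the mean of the other CREB3L1 arrays came to -3.18 on this probe set, and to -0.02 and 0.04 on 1369783_a_at and 1370607_a_at. The 3' and 5' Gapdh probe sets moved apart on the same array, as given above, and their part in this value was not tested.

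Without CREB3L1 replicate 3, then, all 4 Nrg1 probe sets above background were called higher, and they were the 4 calls among the 19 member probe sets (21.1%, against 3.98% of all probe sets). The other 4 Nrg1 probe sets lay between 1.79 and 2.57 in both groups, with differences of -0.04 to 0.02, and none was called. Of the 3 probe sets from 1 sequence record, 1371211_a_at and 1371212_at were above background and 1388245_a_at was not. The rise was compared between the 4 probe sets above background in 6 pairs, from the gaps within each array. The rise of 1370607_a_at differed from that of 1369783_a_at by -0.40 ± 0.08, with the groups apart, which in an exact two-sided permutation test gave p = 0.1, the smallest value that 3 against 3 arrays allow (adjusted p = 0.6 over the 6 pairs). The exact p-values of the other 5 pairs were 0.3 to 1. Because no pair could fall below 0.05 with these arrays, the test cannot decide whether the probe sets rose unequally.

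The Nrg1 calls depended on which arrays were used and on the processing. Leaving out untransfected replicate 1, 2 or 3 or CREB3L1 replicate 2 took 1369783_a_at over the threshold, with adjusted p (limma) of 0.101, 0.104, 0.0550 and 0.0604, while the difference remained 0.92 to 1.07. Leaving out untransfected replicate 1 or 2 or CREB3L1 replicate 1 or 2 did so for 1370607_a_at, with adjusted p (limma) of 0.130, 0.187, 0.141 and 0.170 and differences of 0.54 to 0.62. Without moderation of the variance both calls were lost (adjusted p = 0.123 and 0.185, limma's linear fit), and quantile normalisation (0.0504) and a mean-variance trend (0.0903) ended that of 1370607_a_at.

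**Figure D2:**
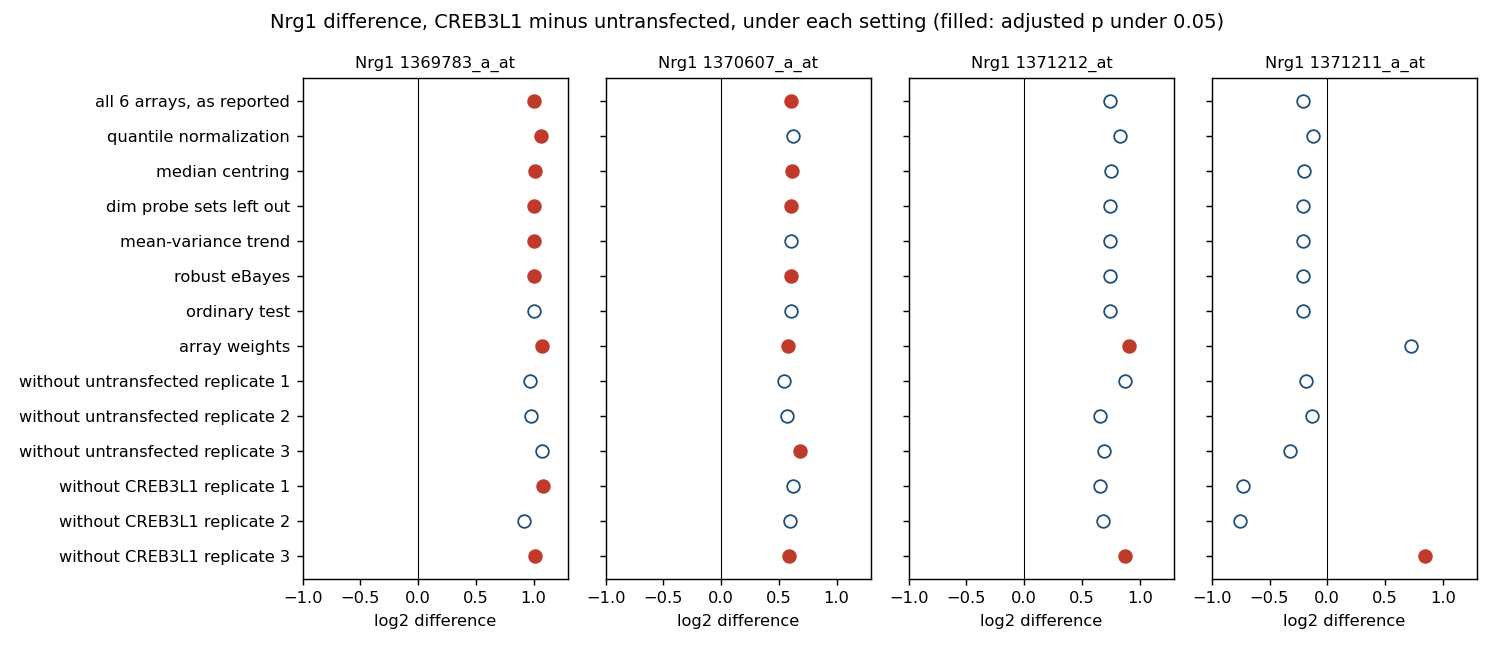
Log2 difference, CREB3L1 minus untransfected (horizontal axis), of the 4 Nrg1 probe sets above background under each setting (vertical axis), with filled circles for an adjusted p below 0.05. The first 3 panels stay to the right of 0 under every setting drawn, and 1371211_a_at lies left of 0 except with array weights (0.73) and without CREB3L1 replicate 3 (0.85).

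The genes whose brightest probe set followed Nrg1 1370607_a_at most closely over the 6 arrays were Zc3h12a, which encodes an RNase that cuts cytokine mRNAs, Fads1, a fatty acid desaturase, and Acsl5, an acyl-CoA synthetase. Their Pearson r was 0.997, 0.990 and 0.989, given as a description over 6 arrays in 2 groups. Zc3h12a read 10.53, 10.51 and 10.80 in untransfected cells and 11.36, 11.42 and 11.45 in CREB3L1 cells, which is 0.80 ± 0.09 higher (adjusted p = 0.0226, limma). Acsl5 rose by 0.38 ± 0.05 (adjusted p = 0.0279, limma), and Fads1 gave 0.24 ± 0.04 (adjusted p = 0.0791, limma).

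Areg encodes amphiregulin, the EGFR ligand best known for driving mammary duct growth. It read 13.80, 13.65 and 13.71 in untransfected cells and 13.91, 13.97 and 13.85 in CREB3L1 cells. All CREB3L1 arrays were higher, by little: the highest untransfected and the lowest CREB3L1 array were 13.80 and 13.85. The difference was 0.19 ± 0.06, or 1.14-fold with a 95% interval of 1.04 to 1.26, and did not pass the test (adjusted p = 0.283, limma). Without CREB3L1 replicate 3 it was 0.22 ± 0.06 and did not pass either (adjusted p = 0.132, limma). With a weight per array, lowest for CREB3L1 replicate 3, it was 0.25 and passed (adjusted p = 0.0374, limma). This was the only 1 of 13 alternatives under which Areg was called.

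CREB3L1 belongs to a family of bZIP factors that bind the cAMP response element (CRE) and related letters, so the promoter windows of the members were searched for them. RefSeq windows of GRCr8, from 250 bases before to 50 after the gene start, were matched by symbol for 7 of the 10 genes. Nrg1, Ereg and Erbb3 were not searched. The CRE, TGACGTCA, is its own reverse complement and was found in 1 of the 7 windows, that of Areg, and in 1.83% of all 33469 windows of this length. It begins at position -91 from the start. On either strand the shorter TGACG, which every CRE contains, was found in 2 of the 7, those of Areg and Hbegf, and in 21.2% of all. The unfolded protein response element TGACGTGG, which also contains TGACG, and the AP-1 site TGANTCA, both searched on either strand, were in 0 of the 7 and in 0.595% and 7.33% of all. The window of Areg is shown for its CRE, in capitals, and that of Tgfa, a bright ligand gene that was lower on all CREB3L1 arrays by 1 of its probe sets, for comparison. Both read 5' to 3' along the gene, Areg from the minus strand of chr14:17265592-17265891 and Tgfa from the plus strand of chr4:120175469-120175768. A match is a description of the letters and no evidence of binding.
Areg: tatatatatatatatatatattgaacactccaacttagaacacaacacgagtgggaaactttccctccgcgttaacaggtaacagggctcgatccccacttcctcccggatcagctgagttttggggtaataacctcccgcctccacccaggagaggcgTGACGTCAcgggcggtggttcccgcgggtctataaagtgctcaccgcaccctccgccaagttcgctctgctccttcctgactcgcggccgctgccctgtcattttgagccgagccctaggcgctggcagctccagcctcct
Tgfa: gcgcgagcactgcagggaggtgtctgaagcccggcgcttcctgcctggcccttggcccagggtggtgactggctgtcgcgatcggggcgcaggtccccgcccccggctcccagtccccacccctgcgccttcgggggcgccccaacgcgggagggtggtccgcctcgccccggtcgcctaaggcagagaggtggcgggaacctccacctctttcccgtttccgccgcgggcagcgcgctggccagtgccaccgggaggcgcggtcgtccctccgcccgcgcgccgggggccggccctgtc

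Tgfa encodes TGF-alpha, an EGFR ligand often made by the tumour cells that respond to it. Its probe set 1381449_s_at, whose suffix marks a set that can match transcripts of more than 1 gene, read 14.69, 14.73 and 14.74 in untransfected cells and 14.49, 14.59 and 14.50 in CREB3L1 cells. All CREB3L1 arrays were lower. The difference of -0.19 ± 0.04, with a 95% interval of -0.29 to -0.09, did not pass the test (adjusted p = 0.140, limma). Probe set 1387450_at read 13.13, 13.09 and 12.96 in untransfected cells and 12.96, 12.98 and 12.19 in CREB3L1 cells. Here the groups overlapped and CREB3L1 replicate 3 was lowest, with a gap of -0.78 to the mean of the other CREB3L1 arrays. The difference was -0.35 ± 0.23 (adjusted p = 0.928, limma), and -0.09 ± 0.06 without that array.

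Ereg encodes epiregulin, a ligand of EGFR and ERBB4, and lies beside Btc, Areg and Epgn in 1 ligand cluster on chromosome 14 of assembly GRCr8. It read 6.32, 6.19 and 4.81 in untransfected cells and 6.56, 6.61 and 6.43 in CREB3L1 cells. The groups did not overlap, but untransfected replicate 3 lay below background and apart from the other untransfected arrays. The difference of 0.76 ± 0.42 did not pass the test (adjusted p = 0.804, limma), and its 95% interval ran from 0.81-fold to 3.54-fold. Without untransfected replicate 3 the difference was 0.28 (adjusted p = 0.468, limma).

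Hbegf, which encodes the heparin-binding ligand HB-EGF, and Btc, which encodes betacellulin, were below background on all 6 arrays. Hbegf lay at 2.67 to 2.72 in untransfected and 2.69 to 2.89 in CREB3L1 cells, and Btc at 2.12 to 2.25 and 2.10 to 2.15. No fold is given for either, and a transcript under the background level is not shown to be absent.

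Egfr, the receptor for the EGFR ligands above, was read above background by 2 probe sets. Probe set 1381145_at gave 9.45, 9.25 and 9.38 in untransfected cells and 9.48, 9.35 and 9.35 in CREB3L1 cells. The groups overlapped almost fully. The difference was 0.03 ± 0.07 (adjusted p = 0.9998, limma), with a 95% interval of 0.911-fold to 1.15-fold. Probe set 1370830_at gave 7.03, 7.09 and 7.20 against 7.13, 7.17 and 7.05, a difference of 0.01 ± 0.06 and an interval of 0.909-fold to 1.12-fold. In the deposited values, the 95% interval of both probe sets therefore holds no change above 1.15-fold. This bound depends on the normalisation. After quantile normalisation the difference was 0.15 for 1370830_at (adjusted p = 0.445, limma) and 0.09 for 1381145_at (adjusted p = 0.834, limma). The remaining Egfr probe set, 1385413_at, lay below background in both groups.

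Erbb2, the partner receptor without a known ligand, lay just under the background level, at 4.74, 4.72 and 4.90 in untransfected and 4.69, 4.67 and 4.83 in CREB3L1 cells. Its difference was -0.06 ± 0.07 (adjusted p = 0.9998, limma), and it turned to 0.10 with quantile normalisation, where it was not called either. Erbb3, which encodes a neuregulin receptor, lay at 2.18 to 2.21 in untransfected and 2.17 to 2.22 in CREB3L1 cells. Erbb4, the other neuregulin receptor, read 2.57 ± 0.03 and 2.54 ± 0.02 (SD, n = 3), also below background. The Nrg1 rise was thus measured in cells whose probe sets for ERBB3 and ERBB4 were under the background level.

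**Figure D3:**
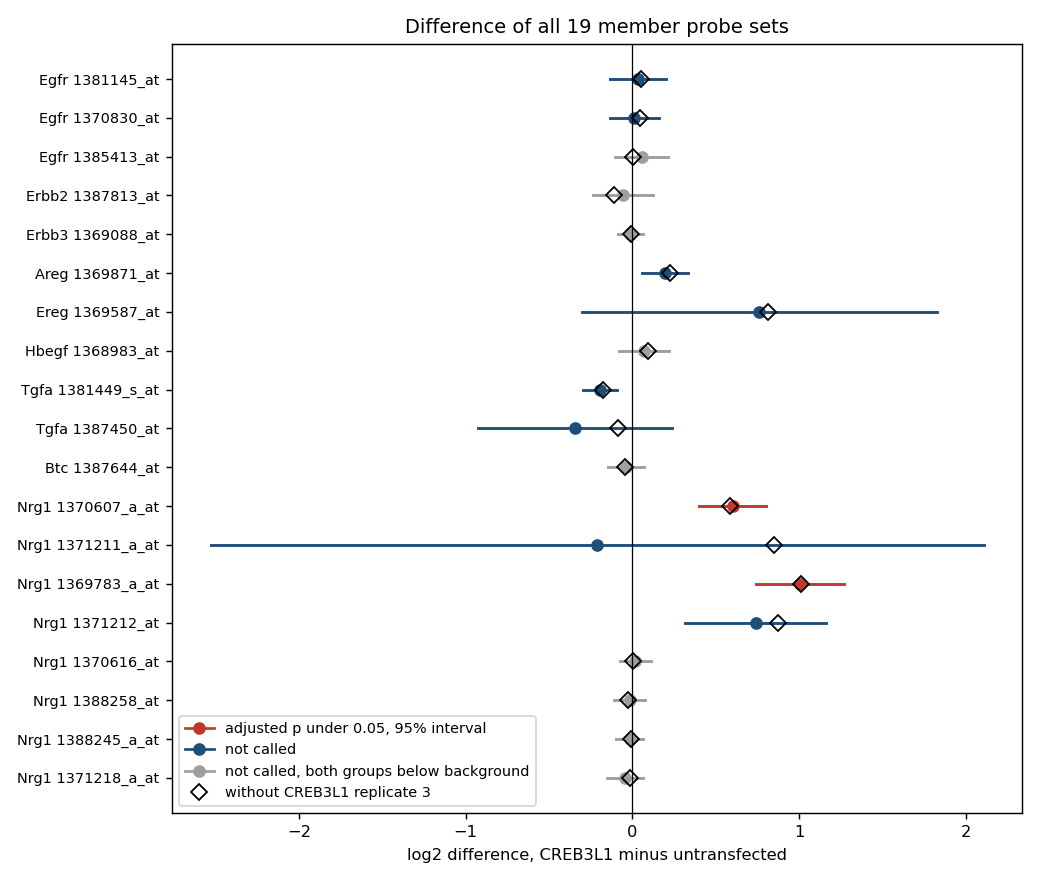
Log2 difference, CREB3L1 minus untransfected, of the 19 member probe sets with its 95% interval, in red where the adjusted p was below 0.05 and in grey where both groups were below background. Open diamonds give the difference without CREB3L1 replicate 3, which for Nrg1 1371211_a_at moves from -0.21 to 0.85 and for Tgfa 1387450_at from -0.35 to -0.09.

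The other genes of the pathway were read in 5 lists, each gene by its brightest probe set. Of 86 listed genes 73 were measured, 0 rose and 2 fell, against 0.577% of all 14217 genes called higher and 1.52% called lower. At an unadjusted p below 0.05, 3 were higher (4.11%, against 6.05% of all genes) and 8 lower (11%, against 7.99%). When CREB3L1 replicate 3 was left out, Ccnd1, which encodes cyclin D1, was called higher, against 2.02% of all genes, and Cd9, Sh3kbp1, Lrig1 and Adam8 were called lower, against 3.7%. Averaging the probe sets of each gene, in place of its brightest, gave 3 genes called lower, with Araf added to Cd9 and Sh3kbp1. With limma's linear fit without moderation 0 were called higher and 1 lower. The median difference of the 73 was -0.02, and that of all genes was -0.01.

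Among 7 measured genes of other ligands, ERBB4 and partner proteins of ligands and receptors, 1 fell and 0 rose. This was Cd9, whose tetraspanin product associates with membrane-bound HB-EGF. It read 14.28, 14.14 and 14.26 in untransfected cells and 13.83, 13.74 and 13.66 in CREB3L1 cells, with the groups well apart. The difference was -0.48 ± 0.06 (adjusted p = 0.0338, limma), and -0.44 ± 0.06 without CREB3L1 replicate 3 (adjusted p = 0.0247, limma). The call was lost after centring by array median (0.0573), in the ordinary test without moderation (0.151) and when any 1 array other than CREB3L1 replicate 3 was left out (0.0779 to 0.159). Egf, Nrg2, Nrg4, Erbb4 and Muc4 were below background in both groups.

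Among 18 measured genes that restrain the receptors or carry them to breakdown, 1 fell and 0 rose. At an unadjusted p below 0.05, 4 were lower and 1 was higher, against 7.99% and 6.05% of all genes. The called gene, Sh3kbp1, encodes CIN85, an adaptor that works with the ubiquitin ligase CBL in receptor endocytosis. It read 9.99, 9.69 and 9.63 in untransfected cells and 8.05, 8.03 and 8.07 in CREB3L1 cells, a gap larger than the spread within either group. The difference was -1.72 ± 0.10 (adjusted p = 0.00346, limma), which is 3.29-fold lower, and the call held under each of the 13 alternatives fitted to single probe sets (adjusted p of 6.45e-04 to 0.0466). A second Sh3kbp1 probe set gave -1.97 ± 0.46 and did not pass (adjusted p = 0.179, limma), while without CREB3L1 replicate 3 it gave -1.44 ± 0.08 and passed (adjusted p = 0.00279, limma). Of its 10 nearest neighbours on the X chromosome that were above background, 5 on each side, 10 had a difference below 0. Of these 5 were called lower, against 1.52% of all genes, and the median was -0.64. Of 10 such neighbours of Cd9 on chromosome 4, 7 were below 0, 3 above 0 and 0 called lower, with a median of -0.08. The part of the X chromosome neighbourhood in the Sh3kbp1 value was not tested. Lrig1, which encodes a membrane inhibitor of EGFR, read 8.57, 8.41 and 8.92 in untransfected cells and 6.72, 6.95 and 7.79 in CREB3L1 cells. All CREB3L1 arrays were lower, with replicate 3 nearest to the controls. The difference was -1.48 ± 0.31 (adjusted p = 0.143, limma), and without CREB3L1 replicate 3 it was -1.80 ± 0.17 and passed (adjusted p = 0.00989, limma). Lrig1 is named for its value and was chosen after the values were seen.

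Of 11 measured sheddase and ligand-processing genes none was called, and none reached an unadjusted p below 0.05 either. The smallest p belonged to Furin, a proprotein convertase, at 0.50 ± 0.20 (adjusted p = 0.526, limma; 0.30 ± 0.11 without CREB3L1 replicate 3), and to Adam8, a metalloprotease, at -0.62 ± 0.25 (adjusted p = 0.529, limma). Without CREB3L1 replicate 3 Adam8 was called, at -0.88 ± 0.12 (adjusted p = 0.0265, limma). Adam17, which encodes the main sheddase of several of these ligands, gave 0.39 ± 0.29 (adjusted p = 0.981, limma), and 0.09 ± 0.13 without CREB3L1 replicate 3.

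Of 23 measured adaptor and kinase genes 0 were called by their brightest probe set, while 1 was higher and 2 were lower at an unadjusted p below 0.05. Of all genes, 6.05% were higher and 7.99% lower at that threshold. Ptpn11, which encodes the phosphatase SHP2, gave 0.24 ± 0.05 (adjusted p = 0.143, limma) and the kinase gene Map2k1 -0.18 ± 0.04 (adjusted p = 0.168, limma). Araf, which encodes a RAF kinase, gave -0.76 ± 0.23 on its brightest probe set (adjusted p = 0.324, limma). Its dimmer probe set read 5.91, 5.97 and 5.85 in untransfected cells and 5.06, 4.98 and 5.21 in CREB3L1 cells, and was called lower, at -0.83 ± 0.07 (adjusted p = 0.0107, limma). The CREB3L1 mean of this dimmer probe set, 5.08, lay close to the background level of 5, which limits how far the size can be read. Leaving out CREB3L1 replicate 3 gave -0.51 ± 0.11 (adjusted p = 0.0839, limma) and -0.89 ± 0.05 (adjusted p = 0.00279, limma), and the mean of both probe sets over all arrays gave -0.79 (adjusted p = 0.0218, limma). Araf was chosen after the values were seen. Of 14 measured genes that the ERK kinases are known to drive, 0 were called. At an unadjusted p below 0.05, 1 was higher and 1 lower, against the same 6.05% and 7.99% of all genes. Dusp5, which encodes a phosphatase of ERK, gave 0.60 ± 0.12 (adjusted p = 0.133, limma), and the transcription factor gene Etv5 gave -0.87 ± 0.19 (adjusted p = 0.155, limma). These are opposite in sign, and the list's median was -0.03.

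**Figure D4:**
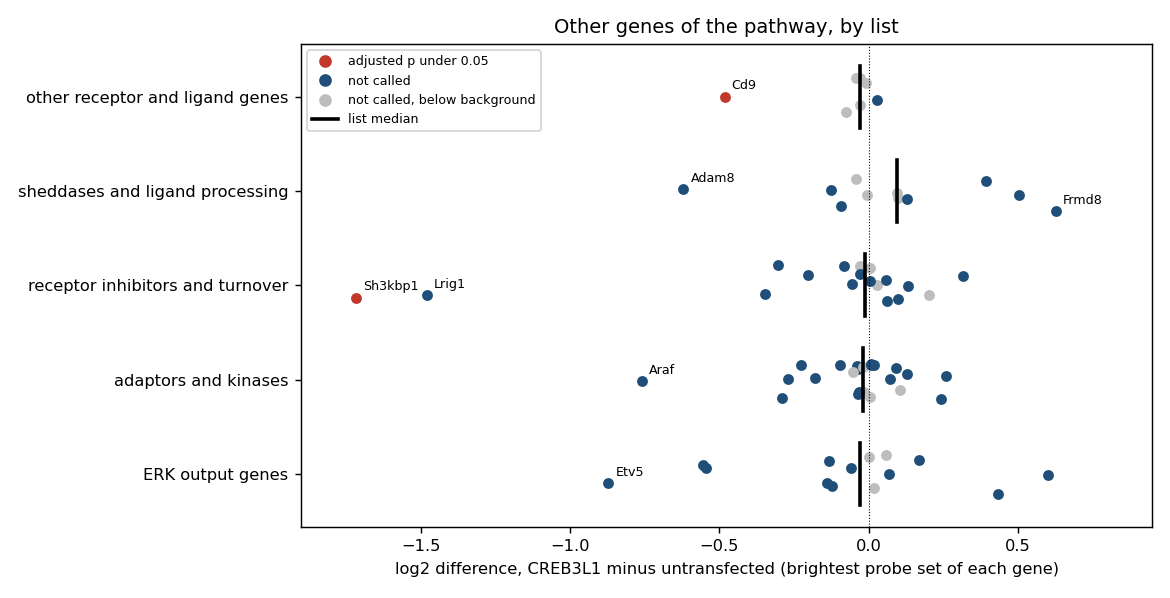
Log2 difference, CREB3L1 minus untransfected (horizontal axis), of 73 pathway genes by list (vertical axis), 1 point per gene, with a bar at each list's median and names for genes called or beyond 0.6 in size. The list medians lie between -0.03 and 0.09, and the red points are Sh3kbp1 and Cd9.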

How the data were processed

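Total RNA of 6 LN4D6 samples, 3 per group, was biotin-labelled with the 3' IVT Express kit after Qiagen extraction, per the labels' protocols. The authors' deposited values are log2 expression values made with RMA and Partek 6.6, per the submitters' processing notes. Their log base, which those notes do not state, was taken as log2 from the range of 0.27 to 17.2. RMA pulls arrays towards 1 distribution, so a shift common to all genes would not show. The deposited value table was used as given.

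Of 31099 probe sets, 57 controls were set aside. The array annotation gave 20826 probe sets 1 gene symbol, 436 several and 9780 none. Groups came from the label for transfection. The test was limma's moderated one (version 3.58.1, R 4.3.3, lmFit and eBayes, two-sided) over 31042 probe sets. It was also run on simulated data with normal noise. That simulation held no array standing apart, so it does not cover an array like CREB3L1 replicate 3. The number of arrays limits the precision.

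Members and gene lists were chosen with earlier results of these data known. Named genes are all members, up to 4 called genes per pathway list (where none was called, the 2 of lowest p), and the 3 genes closest in pattern to a called member; others named were chosen after their values were seen. A gene is read by its brightest probe set. Alternatives were quantile normalisation, median centring, leaving out dim probe sets, a variance trend, robust or no moderation, array weights, each array left out, for the pathway lists the average over a gene's probe sets, and background levels of 4 and 6.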

Additional observations from a re-analysis of the deposited data

How the results depend on the processing

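The counts moved with the moderation of the variance, the arrays used and their weights. Against 2 member probe sets called higher, quantile normalisation and a mean-variance trend each left 1, the ordinary test without moderation 0 and array weights 4, and leaving out 1 array gave 0 to 4. The member count lower was 0 under every alternative tried. Over all probe sets 132 were higher, with 79 under the trend, 9 in the ordinary test, 600 with array weights and 28 to 479 without 1 array. For lower calls, 299 in all, the ordinary test gave 65, array weights 952 and leaving out 1 array 116 to 756. Pathway genes called higher went from 0 to 1 with array weights and 0 to 1 without 1 array. Those called lower went from 2 to 1 with median centring, 1 in the ordinary test, 6 with array weights and 1 to 4 without 1 array. Each highest count without 1 array was the one without CREB3L1 replicate 3. The array weights gave that array 0.17, against 0.78 to 2.77 for the others. Array weights and leaving out that array are therefore not separate checks. The cause of these shifts was not tested, and leaving out an array also leaves fewer samples.

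Nrg1 1371211_a_at reversed, from -0.21 to 0.73 with array weights and 0.85 without CREB3L1 replicate 3, with -0.75 to 0.85 over the arrays left out. The array weights and the fit without CREB3L1 replicate 3 reduce or remove the same array. The other sign changes were of values near 0 that were not called under either setting. Erbb2 went to 0.10 with quantile normalisation. Array weights took Egfr 1385413_at to -0.012 and Nrg1 1370616_at to -0.016. With 1 array left out, Egfr 1370830_at ran from -0.028 to 0.057, Egfr 1381145_at from -0.019 to 0.077, Nrg1 1370616_at from -0.0022 to 0.036 and Nrg1 1388258_at from -0.036 to 0.0054. The pathway gene Ccnd1, 0.07 over all arrays, was -0.038 and -0.022 without CREB3L1 replicates 1 and 2, and 0.27 and called without replicate 3 (adjusted p = 0.0432, limma).

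A background level of 4 placed 11 member probe sets above it and a level of 6 placed 10, as did 5; at 6, Ereg in untransfected cells fell below it. No paired analysis was possible because no replicate number in the labels is common to both groups. Differences of transcripts under the background level could not be measured here.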
